A study of Bos taurus with 54 samples.

Results

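A set of 10 genes that arm cytotoxic lymphocytes was followed in the blood of Holstein calves before and after heat exposure. They encode granule proteins (GZMA, GZMB, PRF1 and NKG7), activating receptors (KLRK1 and NCR1), a death ligand (FASLG), transcription factors (TBX21 and EOMES) and a chemokine (CCL5). The genes were taken by symbol, and all 10 were found among the 32637 genes listed for each library. Blood was drawn from 15 male calves kept in climate-controlled rooms, in the morning under thermoneutral conditions (control) and in the evening directly after 12 h of heat (heat). Red blood cells were lysed and RNA was taken from the remaining cell pellet, so each library pools all blood leukocytes of a calf. The 29 RNA samples gave 54 libraries, 27 with the SMART-Seq v4 3′ DE kit of Takara and 27 with the QuantSeq 3′ kit of Lexogen, and both read the 3′ ends of polyadenylated transcripts. Each kit had 13 control and 13 heat libraries, and 12 calves had both times in a kit. The calf labelled animal 20 had 1 library per kit whose time the sources dispute, and it was left out of every comparison of the times. No calf was sampled in the evening without heat, so heat and time of day cannot be told apart.

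Natural killer cells and cytotoxic T cells kill infected or transformed cells mainly by releasing granules onto them. Perforin opens the target membrane, granzymes enter and start cell death, and a second route runs through Fas ligand on the killer and Fas on the target. T-bet and Eomes switch this programme on in both cell types, and receptors such as NKG2D (from KLRK1) and NKp46 (from NCR1) tell the cell when to use it. NKp46 marks natural killer cells in cattle, and bovine blood also carries many γδ T cells, some of which express the same granule genes.

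Reads counted on genes ranged from 5140595 to 20699030 per Takara library and from 4516761 to 58521751 per Lexogen library. Levels are given as counts per M reads on genes (CPM) scaled by trimmed mean of M values (TMM). They are not divided by transcript length, since a transcript is read at its 3′ end, and how completely a kit reads a given 3′ end also sets the level of a gene. The sample numbers formed 2 runs of 8 and 7 calves, and values are given within each run where they differ. The Takara libraries had counts for every member. In the Lexogen libraries 27 values of 8 members were 0, where 3 counts would have been between 0.0633 and 0.758 CPM depending on the library. Animal 18 stood apart, with 6 of the 10 members at 0 in its Lexogen heat library.

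Of the 10 members, NCR1 alone passed the test between the times, in both kits, and it was higher after heat. Its Lexogen call was lost with the animal as a block (adjusted p = 0.272) and without any 1 of 8 of the 14 calves. With the total count as library size in place of TMM, EOMES was also called, and lower, in Takara (log2 fold change −0.54, adjusted p = 0.0342). That scaling moved the median log2 fold change of all Takara genes from −0.05 to −0.27 and the called genes from 2325 up and 1321 down to 1303 up and 2185 down. With TMM the other 9 in Takara and the other 8 tested in Lexogen did not pass. In Takara, 1 of 10 members was called (up), where 28.9% of all 12620 genes tested were called, 18.4% up and 10.5% down. In Lexogen, 1 of 9 was called (up), where 5.55% of 11108 genes were called, 5.09% up and 0.459% down. GZMA did not pass the filter on low counts in Lexogen. The median log2 fold change of the tested members was 0.05 (Takara) and 0.32 (Lexogen), and that of all genes tested was −0.05 and −0.08, and 5 members were above 0 in each kit. No member had control and heat libraries that did not overlap, and such genes were 0.0317% of those tested in Takara and 0.009% in Lexogen. In bulk RNA of blood, fewer cells of a type and less RNA per cell cannot be told apart.

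**Figure D1:**
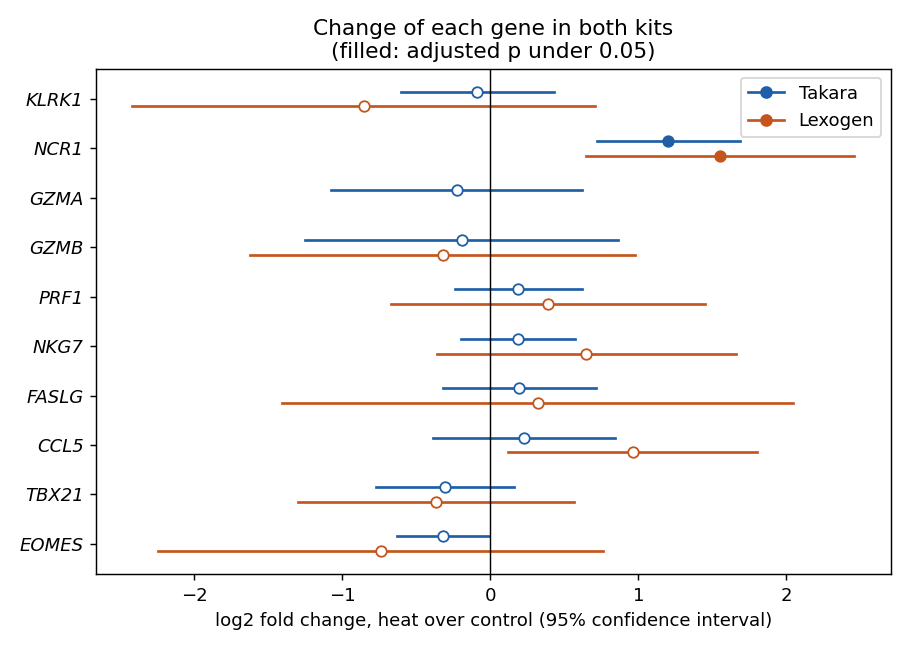
Log2 fold change of each gene after heat relative to control (x axis) with its 95% confidence interval, for Takara (blue) and Lexogen (orange). Filled points had an adjusted p under 0.05. NCR1 is the only gene with filled points, at 1.20 in Takara and 1.55 in Lexogen, and GZMA has no Lexogen estimate.

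NCR1 encodes NKp46, a receptor that triggers natural killer cells. In Takara libraries its level was lowest at 10.1, median 17.2 and highest 29.8 CPM in control, and lowest at 15.3, median 46.3 and highest 92 CPM after heat. The groups overlapped only in the lower range, and 8 of the 13 heat libraries lay above every control library. The log2 fold change was 1.20 (standard error 0.24, 95% confidence interval 0.72 to 1.69, adjusted p = 0.000762, edgeR's quasi-likelihood test). NCR1 was higher after heat in 11 of 12 calves, with a change per calf between −0.19 (animal 41) and 2.18 (animal 7) on the log2 scale. It was 1.15 in run 1 and 1.27 in run 2 (adjusted p = 0.0159 and 0.048). Without any 1 of the 14 calves it stayed between 1.11 and 1.29 and was called each time.

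Lexogen libraries placed NCR1 at 6.43, 14.5 and 88.1 CPM in control and at 8.69, 49.6 and 200 CPM after heat (lowest, median, highest). The control library of animal 14 was far above the other 12 control libraries, and the heat library of animal 18 was the highest of all. The log2 fold change was 1.55 (standard error 0.45, 95% confidence interval 0.64 to 2.46, adjusted p = 0.0328). It was higher after heat in 9 of 12 calves. NCR1 moved in the same direction in both kits in 6 of the 10 calves with both times in both kits, all 6 upward. With the animal as a block the change was 1.22 and the call was lost (adjusted p = 0.272), with 0.568% of 11087 genes called in that fit. The call was also lost without any 1 of 8 of the 14 calves (animals 7, 15, 16, 18, 19, 29, 36 and 40), with adjusted p from 0.0504 to 0.128. Within run 1 the change was 2.13 (adjusted p = 0.0276) and within run 2 it was 0.76 (adjusted p = 0.751).

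NCR1 lies on chromosome 18 (62505908 to 62527154, ARS-UCD2.0), and the gene FCAR lies 105 bases from it (62527260 to 62540970). FCAR encodes an Fc receptor for IgA that is carried by neutrophils and other myeloid cells. Its Takara level ran from 12.5 to 86.4 CPM in control (median 45.5) and from 18.5 to 438 CPM after heat (median 101). The log2 fold change of FCAR was 1.84 in Takara (standard error 0.40, adjusted p = 0.0016) and 1.62 in Lexogen (standard error 0.53, adjusted p = 0.0693). Both genes were counted almost wholly in the sense direction, with 0.932% of the Takara counts on NCR1 antisense and 0.343% of those on FCAR. Whether reads of one gene were counted on the other was not tested.

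The neutrophil markers rose in the same libraries. Of 10 markers measured, 8 rose and 0 fell in Takara and 7 rose and 0 fell in Lexogen, and their summed Takara level had a median of 11549 CPM in control (4298 to 19813) and 42549 CPM after heat (3795 to 109727). S100A12, S100A8 and S100A9 weighed most in this sum, with 4794767, 1269286 and 1087489 Takara counts. The next highest was CSF3R with 347491, and it did not pass in Takara. Changes of this sum therefore mostly follow the 3 S100 genes. The change of this sum was compared with that of each member over the 12 calves of a kit, and in Takara NCR1 had the highest r of the 10 members (r = 0.82, Spearman rho = 0.71, permutation p = 0.00228 and 0.0115, adjusted over 21 relations 0.0120 and 0.0602). It was 0.74 without the 2 calves farthest from the median, 0.96 in run 1 and 0.68 in run 2 (6 calves each). FCAR gave an r of 0.97. In Lexogen the r was 0.67 for NCR1 (rho = 0.64, permutation p = 0.0183 and 0.0282, adjusted 0.0767 and 0.0847) and 0.85 for FCAR. The 2 measures of a calf come from the same libraries and share their scaling, and the relation was looked at after the values were known. The part of neutrophil RNA in the rise of NCR1 was not tested.

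**Figure D2:**
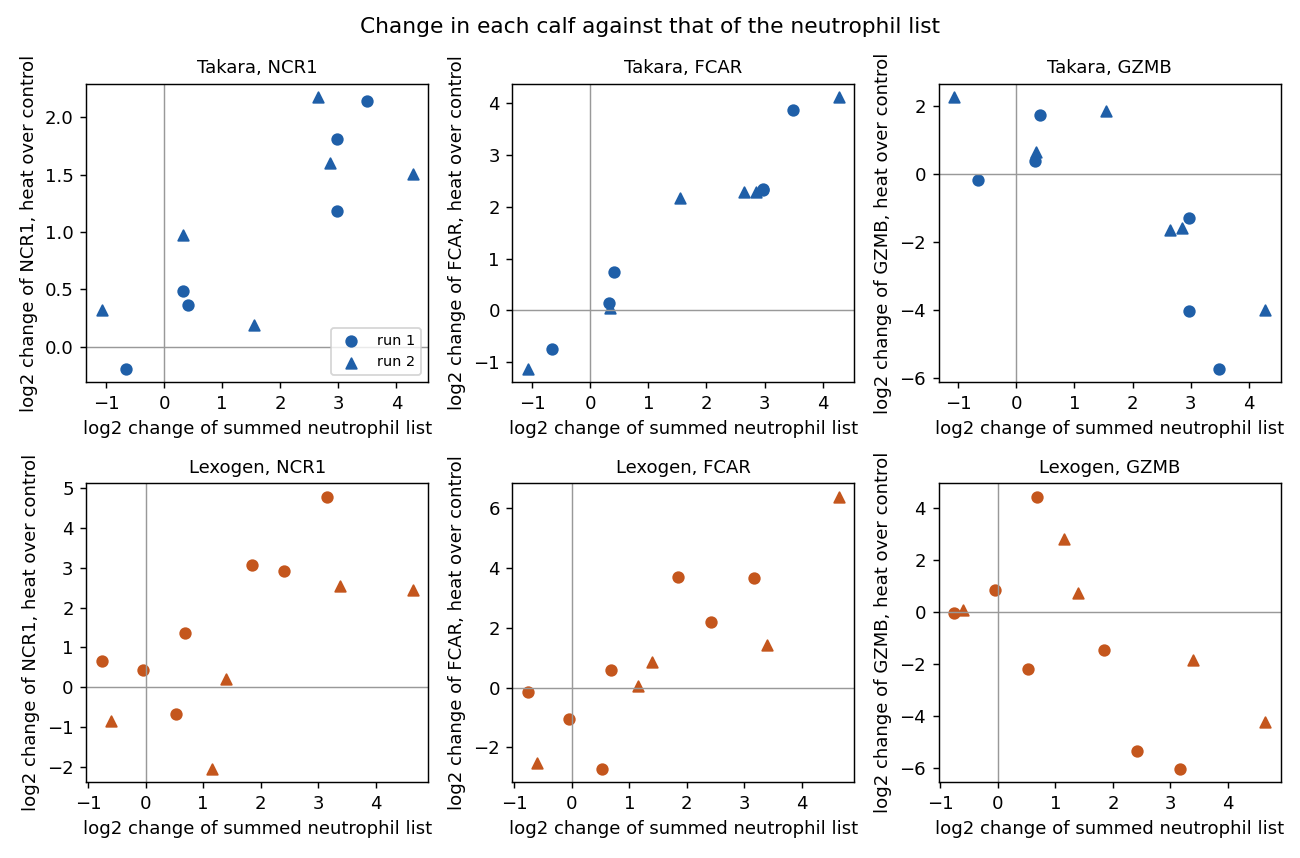
Log2 change of NCR1, FCAR and GZMB after heat in each calf (y axes) against the log2 change of the summed neutrophil markers in the same kit (x axes), for Takara (top, 12 calves) and Lexogen (bottom, 12 calves). Circles are calves of run 1 and triangles calves of run 2. In Takara NCR1 and FCAR go up with the neutrophil sum (r of 0.82 and 0.97) and GZMB goes down (r of −0.82). S100A12, S100A8 and S100A9 hold most of the counts in this sum.

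KLRK1 encodes NKG2D, an activating receptor of natural killer cells and CD8 T cells that binds stress-induced ligands. Its Takara level was 4.02, 7.81 and 19 CPM in control and 4.08, 8.21 and 13.3 CPM after heat (lowest, median, highest). The ranges lay almost on top of each other, and the log2 fold change was −0.09 (95% confidence interval −0.60 to 0.43, adjusted p = 0.818). In Lexogen the medians were 5.44 and 4.55 CPM, 4 heat libraries and 0 control libraries were at 0, and the log2 fold change was −0.85 (−2.42 to 0.71, adjusted p = 0.640). KLRK1 moved in the same direction in both kits in 8 of the 10 calves with both times in both kits.

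GZMB encodes granzyme B, the granule protease that starts caspase-dependent death in the target. In Takara it stood at 19.4, 51.3 and 133 CPM in control and at 1.93, 25.2 and 188 CPM after heat (lowest, median, highest). The heat libraries reached below and above the whole control range, with 6 of 13 under the lowest control library and 1 above the highest. The log2 fold change was −0.19 (standard error 0.52, 95% confidence interval −1.25 to 0.87, adjusted p = 0.803). The calves went opposite ways, 5 higher and 7 lower, from −5.72 in animal 18, −4.01 in animal 40 and −3.98 in animal 36 to 1.87 in animal 32 and 2.27 in animal 3. In GZMB the standard deviation of log2 CPM was 0.75 in control and 2.10 after heat. This ratio of 2.82 was above that of 96.4% of the 12620 genes tested, whose median ratio was 1.28.

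Lexogen libraries gave GZMB levels of 0.280, 17.8 and 28.2 CPM in control and 0, 7.91 and 32.4 CPM after heat. The log2 fold change was −0.32 (95% confidence interval −1.62 to 0.98, adjusted p = 0.868), with 5 calves higher and 7 lower. In 9 of the 10 calves with both times in both kits GZMB went the same way in both, 4 up and 5 down. The standard deviation of log2 CPM was 1.90 in control and 2.60 after heat, and this ratio of 1.37 was above that of 50.7% of the genes tested. Other members had higher ratios in Lexogen, with 3.34 for CCL5 (above 97.2% of genes), 2.52 for TBX21 (91.1%) and 2.08 for PRF1 (83.2%). KLRK1 and NKG7 were also above GZMB there, and NCR1, FASLG and EOMES were below it. The change of GZMB within a calf ran against that of the neutrophil markers, with an r of −0.82 in Takara (rho = −0.81, permutation p = 0.00084 and 0.00196, adjusted 0.00588 and 0.0137) and −0.63 in Lexogen (rho = −0.57, permutation p = 0.0311 and 0.0567, adjusted 0.0833 and 0.132). In Takara it was −0.84 without the 2 farthest calves, −0.82 in run 1 and −0.90 in run 2. GZMB was not alone in Lexogen, where r was −0.63 for TBX21 and −0.62 for FASLG (permutation p = 0.0357 and 0.0326, both adjusted 0.0833). In Takara these 2 genes had an r of −0.31 and −0.061, and PRF1 had one of 0.60 (permutation p = 0.0340, adjusted 0.0833). In the Takara heat libraries the highest GZMB level was 97.4 times the lowest, while NKG7 differed by 4.10 times. GZMA, which had few reads, differed by 28.1 times after heat and by 20.5 times in control. The summed T cell markers differed by 2.38 times after heat, the neutrophil markers by 28.9 times and the 3 γδ T cell markers by 29.2 times. These marker values are sums over lists of genes, not levels of a single gene. The γδ T cell markers were WC1, WC1.3 and CD163L1 alone, since TRDC was not among the genes listed. Their sum had a median of 37.2 CPM in control (8.61 to 83.0) and 11.8 CPM after heat (2.44 to 71.2). The part of this sum in the spread of GZMB was not tested. GZMB lies on chromosome 21 (34741243 to 34743324) beside 3 protein-coding loci without a gene name, of which LOC100139881 held 6454 counts in control and 4981 after heat in Takara. Reads that mapped to more than 1 place were left out by the counting, and whether these loci share reads with GZMB was not tested.

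**Figure D3:**
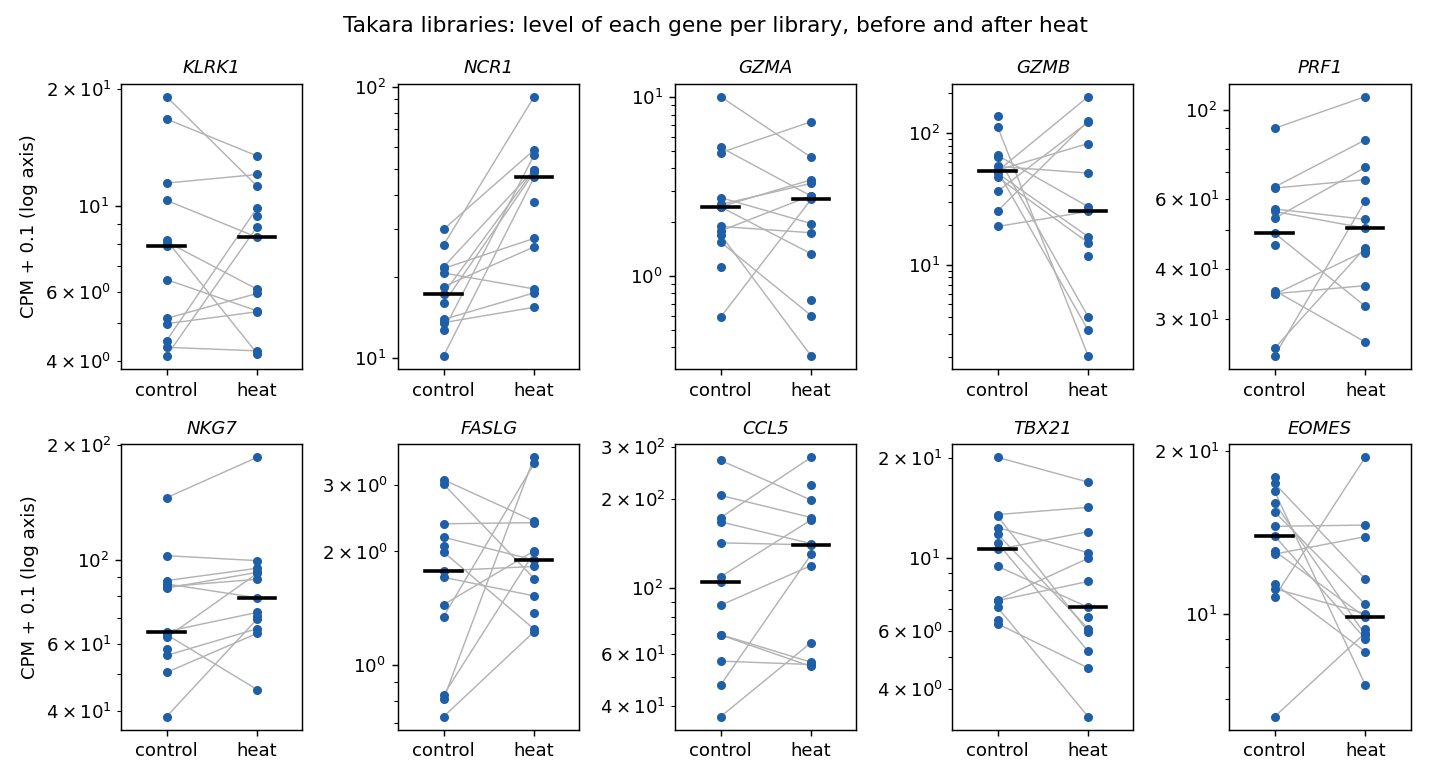
Level of each gene in every Takara library before (control) and after heat, as CPM + 0.1 on a log axis that differs between panels. Grey lines join the 2 libraries of a calf and black bars are medians of 13 libraries. NCR1 medians go from 17.2 to 46.3 CPM, and the heat libraries of GZMB spread from 1.93 to 188 CPM.

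PRF1 encodes perforin. Its Takara level was 24.1, 49.1 and 89.9 CPM in control and 26.1, 50.5 and 108 CPM after heat, and the log2 fold change was 0.19 (95% confidence interval −0.24 to 0.62, adjusted p = 0.512). The 2 ranges were nearly the same, and the largest value at both times came from animal 14. NKG7, a granule membrane protein of killer cells, was at 38.5, 64.6 and 145 CPM in control and 45.4, 79.2 and 186 CPM after heat in Takara, with a log2 fold change of 0.19 (−0.20 to 0.57, adjusted p = 0.470). It was higher after heat in 9 of 12 calves, by 0.85 at most. In Lexogen the log2 fold changes were 0.39 for PRF1 (−0.67 to 1.45) and 0.65 for NKG7 (−0.36 to 1.66), with adjusted p of 0.786 and 0.565. PRF1 was at 0 in the Lexogen heat library of animal 18.

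GZMA encodes granzyme A, a tryptase-like granzyme. It had few reads, with 0.487, 2.33 and 9.98 CPM in Takara control libraries and 0.257, 2.58 and 7.20 CPM after heat. The log2 fold change was −0.23 (95% confidence interval −1.07 to 0.62, adjusted p = 0.705). In Lexogen it was at 0 in 4 control and 5 heat libraries, with medians of 1.81 and 0.213 CPM and no test. Its locus (chromosome 20, 24009813 to 24018787) lies inside that of CDC20B, which had 10 Takara counts in control and 13 after heat.

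FASLG, the ligand of Fas, was the member with the lowest level in Takara. It had medians of 1.68 CPM in control (0.627 to 3.00) and 1.80 CPM after heat (1.12 to 3.46) and a log2 fold change of 0.20 (95% confidence interval −0.32 to 0.71, adjusted p = 0.579). In Lexogen 3 libraries of each time were at 0 and the log2 fold change was 0.32 (−1.41 to 2.05, adjusted p = 0.906). CCL5 encodes a chemokine that killer cells store and release with their granules, and it had the highest level of the members in Takara, at 36.6, 104 and 270 CPM in control and 54.2, 140 and 277 CPM after heat. The Takara log2 fold change was 0.23 (−0.39 to 0.84, adjusted p = 0.591), with 5 calves higher and 7 lower. In Lexogen CCL5 went from a median of 11.2 to 20.9 CPM and was higher in 10 of 12 calves, but did not pass (log2 fold change 0.96, 0.12 to 1.80, adjusted p = 0.204). Without animal 18, whose Lexogen heat library had no CCL5 count, the change was 1.12 and passed (adjusted p = 0.0443). In the 13 fits that each left out another calf CCL5 did not pass in Lexogen (adjusted p from 0.197 to 0.391).

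The 2 transcription factors had negative estimates in both kits. TBX21 (T-bet) was at 6.21, 10.5 and 20.1 CPM in Takara control libraries and at 3.20, 6.97 and 16.8 CPM after heat, with a log2 fold change of −0.31 (95% confidence interval −0.77 to 0.16, adjusted p = 0.314). In Lexogen it was −0.37 (−1.30 to 0.56, adjusted p = 0.769). EOMES stood at 6.38, 13.8 and 17.8 CPM in control and 7.32, 9.79 and 19.3 CPM after heat in Takara. Its log2 fold change was −0.32 (−0.63 to −0.01) with an unadjusted p of 0.0461 and an adjusted p of 0.115. EOMES was lower in 8 of 12 calves in Takara and 10 of 12 in Lexogen (−0.74, −2.24 to 0.76, adjusted p = 0.687), and the direction was the same in both kits in 9 of 10 calves.

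EOMES was the member whose Takara estimate differed most between the runs relative to its error. In run 1 its level fell from a median of 15.9 to 9.07 CPM (log2 fold change −0.73, adjusted p = 0.00517, with 5.87% of 12791 genes called down), and in run 2 the medians were 11.9 and 12.1 CPM (0.16, adjusted p = 0.717). The interaction of run and time was 0.86 (standard error 0.27, unadjusted p = 0.00362) and did not pass after adjustment over 13767 genes (adjusted p = 0.0909), where 2.27% of genes passed. In Lexogen 0.0222% of 13484 genes passed, and in both kits 0 of 10 members did. Under an unadjusted p of 0.05 there was 1 other member, CCL5 in Lexogen (1.72, unadjusted p = 0.0381, adjusted p = 0.593). At this size it recovered 62.5% of simulated 4-fold interactions in Takara and 16% in Lexogen. Without animal 3, EOMES passed over both runs in Takara (−0.44, adjusted p = 0.0203). In the 13 fits that each left out another calf it did not pass (adjusted p from 0.0621 to 0.230).

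**Figure D4:**
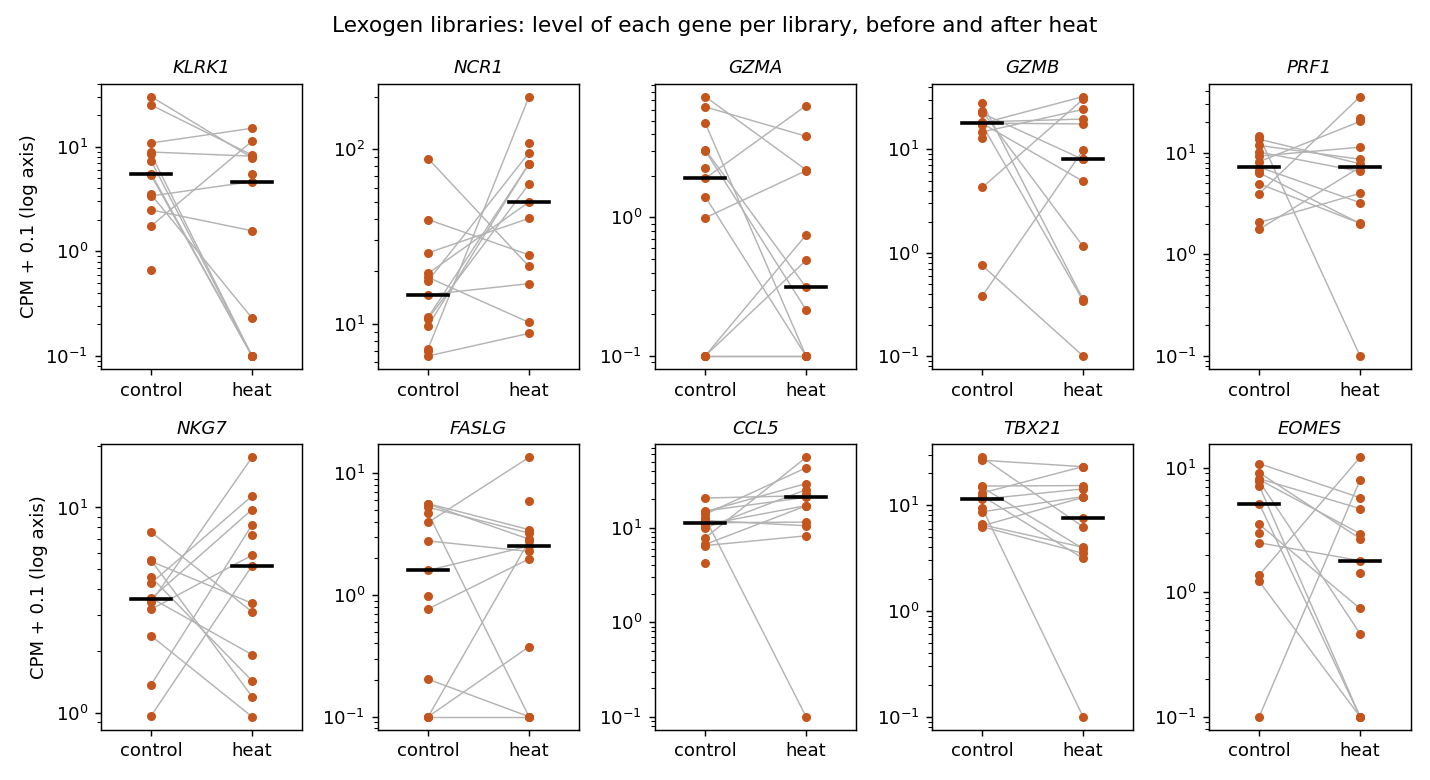
Level of each gene in every Lexogen library before (control) and after heat, as CPM + 0.1 on a log axis that differs between panels, so that a value of 0 is drawn at 0.1. Grey lines join the 2 libraries of a calf and black bars are medians of 13 libraries. NCR1 medians go from 14.5 to 49.6 CPM, and animal 18 falls to 0 after heat for PRF1, CCL5 and TBX21.

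The members varied together in part. Over the 26 Takara libraries, with each time centred on its own mean, the Pearson r of log2 CPM was positive in 39 of 45 pairs of members, with a median of 0.28. The highest values joined PRF1 with NKG7 (0.86), PRF1 with CCL5 (0.78) and NKG7 with CCL5 (0.69). The lowest was that of GZMB with NCR1 (−0.50). In Lexogen 24 of 36 pairs were positive (median 0.22), TBX21 with CCL5 was highest (0.75), and GZMB with NCR1 was again lowest (−0.55). The Lexogen heat library of animal 18 had TBX21 and CCL5 at 0, GZMB at 0.253 CPM and NCR1 at 200 CPM. Its weight in the Lexogen values was not tested. Outside the members, the genes most like the members' mean in Takara were KLRB1 (r = 0.86), S1PR5 (0.85), LOC100296778 (0.81), IL2RB (0.81) and LOC104968634 (0.80). KLRB1 encodes a lectin-like receptor of natural killer cells, S1PR5 a sphingosine phosphate receptor and IL2RB a chain of the IL-2 and IL-15 receptors. In Lexogen their r was 0.0022, −0.23, 0.30, 0.80 and 0.53, so IL2RB alone was near its Takara value. These r are descriptions over libraries that share animals, depth and scaling.

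Among 68 other genes of the cytotoxic pathway, 67 were listed and 58 were tested in Takara, of which 15 rose, 7 fell and 36 did not pass, with a median log2 fold change of 0.10. Of all genes tested, 18.4% rose and 10.5% fell in Takara, and 5.09% rose and 0.459% fell in Lexogen. The counts by role and by cell type that follow stand against the same shares. In Lexogen 55 were tested, 7 rose and 1 fell, with a median of 0.07, and with the animal as a block 2 rose (IL18RAP and STX11) and 0 fell, so the other Lexogen calls named here were lost in that fit. The largest changes were in the cytokine receptors, where 3 of 7 rose in Takara. IL18R1 and IL18RAP, the 2 chains of the IL-18 receptor, rose by 4.09 (standard error 0.63) and 3.96 (0.60) on the log2 scale in Takara and by 3.36 and 4.16 in Lexogen. Neutrophils express the IL-18 receptor as well.

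Of 6 other granule proteins tested in Takara 1 rose and 0 fell, and it was SRGN, the proteoglycan that packs granules in many leukocytes (1.13, standard error 0.31). Of 8 release genes 2 rose and 0 fell, and the larger change was that of STX11, a syntaxin needed for granule fusion, with 1.39 in Takara and 1.21 in Lexogen (standard errors 0.33 and 0.29). Of 8 transcription factors 3 rose in Takara and 0 fell. NFIL3, which natural killer cells need to develop, rose by 2.81 and 2.12 (standard errors 0.48 and 0.41), and PRDM1 (Blimp-1) by 1.71 and 1.05 (0.32 and 0.28), in Takara and Lexogen.

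Receptors and adaptors went both ways. Of 16 tested in Takara 2 rose, 4 fell and 10 did not pass. CD244, a receptor of natural killer and myeloid cells, rose by 1.90 in Takara and 1.42 in Lexogen (standard errors 0.33 and 0.27), and TYROBP (DAP12), an adaptor of natural killer and myeloid receptors, by 1.22 and 1.10 (0.28 and 0.33). HCST (DAP10), the adaptor through which NKG2D signals, had the largest fall, −0.71 (standard error 0.17, adjusted p = 0.00356). CD247, the CD3 zeta chain, was at −0.53 (0.17), CD8B at −0.42 (0.15) and NCR3, which encodes NKp30, at −0.37 (0.14), all with adjusted p between 0.0214 and 0.0463 in Takara. These 4 did not pass in Lexogen, where HCST was at −0.60, CD247 at −0.39, CD8B at −0.23 and NCR3 at 0.51.

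In the death receptor pathway 3 of 6 genes rose and 2 fell in Takara. FAS, the receptor of FASLG, rose by 1.04 (standard error 0.26) in Takara and did not pass in Lexogen (0.59, adjusted p = 0.202). TNFSF10 (TRAIL) fell in both kits, by 0.39 (0.14) and 0.76 (0.22) on the log2 scale, and its Lexogen call was lost with the animal as a block (−0.82, adjusted p = 0.0645). BID fell in Takara by 0.41 (0.14). Of the inhibitors tested SERPINB6, an intracellular blocker of granule proteases, fell, at −0.49 (0.16), and CFLAR, a brake on Fas signalling named after its value was seen, rose by 0.76 (0.17). Among the chemokines, cytokines and homing receptors 0 of 5 passed in Takara and 0 of 4 in Lexogen, and with the animal as a block CCL4 passed in Takara (0.97, adjusted p = 0.0199). CD160 had no count in the 26 libraries of either kit. KLRC1, SERPINB9, IFNG and CCL3 had none in the 26 Lexogen libraries.

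**Figure D5:**
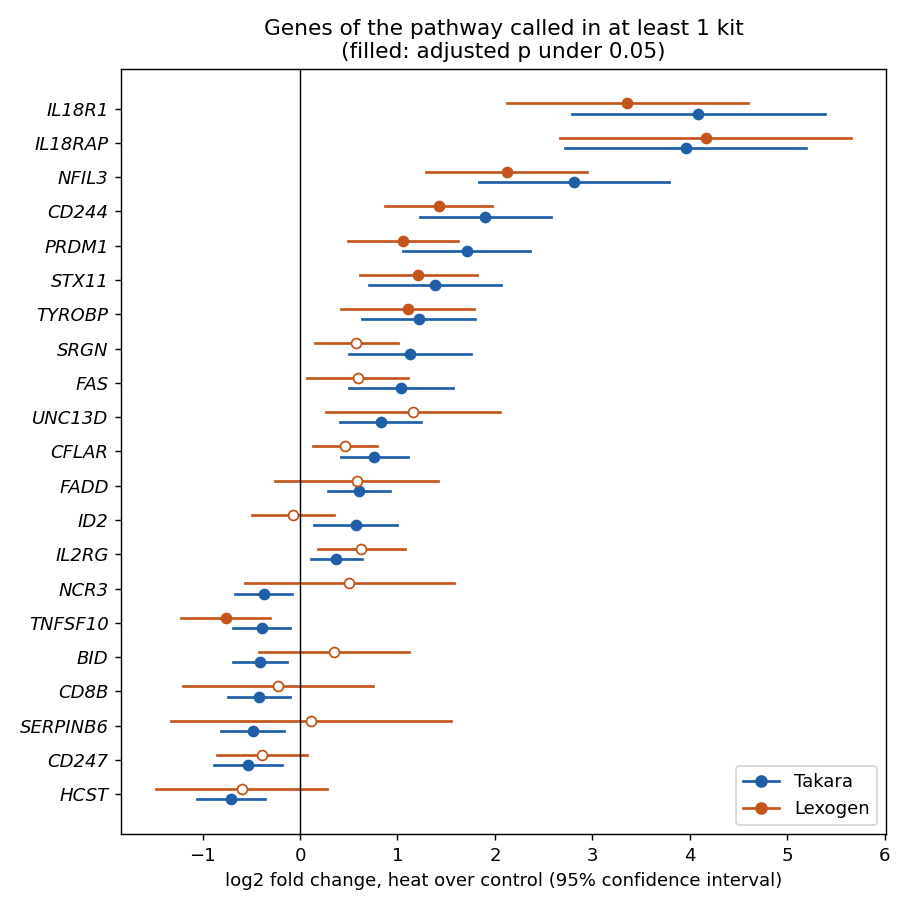
Log2 fold change after heat relative to control (x axis) with 95% confidence intervals for other pathway genes called in at least 1 kit, in Takara (blue) and Lexogen (orange). Filled points had an adjusted p under 0.05. IL18R1 and IL18RAP lie highest, and TNFSF10 is the only gene below 0 with filled points in both kits, although its Lexogen call was lost when the animal was a block.

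Markers of other leukocytes gave the setting of these values. In Takara 0 of 12 T cell markers rose and 5 fell, CD3E among them (−0.55, standard error 0.19, adjusted p = 0.0304), and the median of their sum went from 1427 to 1017 CPM. CD8A, which is in the pathway list, was at −0.08 (0.17, adjusted p = 0.753). CD8B of the same list fell in Takara, also with the animal as a block (−0.36, adjusted p = 0.0442). Of 10 B cell markers 1 fell (MS4A1 was at −0.14, adjusted p = 0.489), and of 8 monocyte markers 4 rose, with CD14 at 0.26 (adjusted p = 0.425). The neutrophil marker CSF3R was at 0.51 (adjusted p = 0.164). None of 3 γδ T cell markers, 5 platelet markers or 2 erythroid markers tested passed, and HBA had no count in Lexogen. In Lexogen 0 of 11 T cell markers passed. The part of these shifts in the values of the members was not tested.

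Takara and Lexogen libraries were made from the same RNA in 25 cases, and the kits were compared over these cases. The study pooled the libraries of each kit at slightly different cDNA concentrations. The part of this pooling in the differences between the kits was not tested. Here 6 of 10 members differed between the kits, 5 higher and 1 lower in Takara, where 72.3% of 12402 genes differed, 40.5% higher and 31.8% lower. NKG7 had a median of 78.5 CPM in Takara (38.2 to 187) and 3.52 CPM in Lexogen (0.869 to 17.4), a log2 difference of 3.73 (standard error 0.22, adjusted p = 4.32e-16). CCL5 was higher in Takara by 2.53 (0.20), PRF1 by 2.26 (0.27), GZMB by 1.84 (0.31) and EOMES by 1.84 (0.42), each higher in 25 of 25 RNA samples. NCR1 was lower in Takara by −0.70 (standard error 0.17, adjusted p = 0.000536). Differences for GZMA (1.08, 95% confidence interval −0.26 to 2.42), KLRK1 (0.34, −0.54 to 1.22), FASLG (−0.15, −1.44 to 1.13) and TBX21 (−0.41, −0.90 to 0.09) did not pass. By median level CCL5, NKG7 and GZMB led in Takara, and NCR1, CCL5 and GZMB in Lexogen.

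The change after heat was not shown to differ between the kits. Over 24 RNA samples that had a library of each kit, 0 of 10 members and 0 of 13354 genes passed the interaction of kit and time (0.0% called, edgeR's quasi-likelihood test, blocked by RNA sample, with 526 genes at an unadjusted p under 0.05). The Takara change minus the Lexogen change was −0.62 for NCR1 (95% confidence interval −1.35 to 0.11), −0.04 for GZMB (−1.45 to 1.37) and 0.96 for EOMES (−0.77 to 2.7). The same test recovered 47% of simulated 4-fold differences.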

How the data were processed

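Leukocyte RNA of 15 Holstein calves was sequenced with 2 3′ mRNA-Seq kits. Per the labels and the study's methods, the authors used Trimmomatic 0.39 for trimming and STAR 2.7.10b for mapping to ARS-UCD2.0, and deposited raw counts of uniquely mapped reads for each gene. The unstranded counts were used, and the 4 totals above the genes were left out. Positions come from RefSeq (30271 of 32637 symbols matched). Sequences were not used here. Times were taken from the labels.

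Each kit was fitted with edgeR 4.0.16 (R 4.3.3): filterByExpr, TMM, a quasi-likelihood test with time as its single term, and Benjamini-Hochberg adjustment over all genes tested, called under 0.05. Log2 changes per calf used a prior count of 2. Kits were compared with the RNA sample as a block. Permutation tests (scipy 1.17.1, 100000 resamples, two-sided) served the relations over calves, adjusted over 21. Animal numbers mark the same calf, and centred gene levels of the 2 times correlated above 0.1 in 11 of 12 Takara calves and 2 of 12 Lexogen calves. The animal as a block was therefore run as an alternative to the study's model without it.

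The members and lists were chosen with earlier results of these data known. Members were named in full. Of the cell type lists CD3E, MS4A1, CD14, CSF3R and markers with no count were named. Of the pathway list, genes called in both kits or, per direction, the 10 with the largest Takara change were named, with CD8A added. Of the pathway genes that this rule names, 1 is not reported here. GZMH, TRDC, FPR1 and GP1BB were not among the genes listed and are not used here.

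On simulated data the test recovered 79.0% of 2-fold and 96.0% of 4-fold changes in Takara, and 19.0% and 63.0% in Lexogen. For each fold 100 genes were changed, of 12620 in Takara and 11108 in Lexogen. The libraries were drawn without a calf effect. The real Takara fit called 28.9% of genes, so these rates need not hold for the real libraries. Without molecular identifiers, PCR copies count as reads, and the floors given for counts of 0 cover counting error only.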

Additional observations from a re-analysis of the deposited data

How the results depend on the processing

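With the animal 20 libraries as control, 0 members and 0 other pathway genes were called in either kit, in fits that called 0 of 12652 Takara genes (3804 at an unadjusted p under 0.05) and 2 of 11222 Lexogen genes, and NCR1 was at 0.96 in Takara (adjusted p = 0.0553) and 1.29 in Lexogen (adjusted p = 0.243). The labels put these libraries in the evening, and with them as heat 4200 Takara genes and 821 Lexogen genes were called. The study lists the calf with 1 RNA sample under control alone. With the total count as library size, 2 members were called in Takara (NCR1 at 0.87 and EOMES at −0.54), and PRF1, NKG7 and FASLG turned to −0.069, −0.025 and −0.068. Run 1 alone called 2 members in Takara (NCR1 and EOMES), where 20.6% of 12791 genes were called, with KLRK1 at 0.14 and FASLG at −0.084 there and PRF1 at −0.28 in Lexogen. Run 2 alone called 5 other pathway genes in Takara, where 7.35% of 12661 genes were called. In Lexogen run 2 called 0 members, 0 other pathway genes and 0 of 11459 genes (1275 at an unadjusted p under 0.05). In run 2 GZMB was at 0.65 and EOMES at 0.16 in Takara, and they were at 0.078 and 0.85 in Lexogen.

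With a block for the animal, Lexogen called 0 members and 2 other pathway genes, with PRF1 at −0.23, and the block changed no other call of a member. Without the deepest Lexogen library, 0 members and 5 other pathway genes were called, where 4.05% of 11213 genes were called. Leaving out 1 calf at a time gave 1 to 2 members and 15 to 24 other pathway genes in Takara, and 0 to 1 members and 5 to 9 other pathway genes in Lexogen. These fits turned the sign of 4 uncalled changes: in Takara that of KLRK1 (−0.17 to 0.026, above 0 without animal 14) and GZMB (−0.57 to 0.030, above 0 without animal 18), and in Lexogen that of PRF1 (−0.011 to 0.66, below 0 without animal 14) and FASLG (−0.11 to 0.58, below 0 without animal 19). The cause of these moves was not tested. NCR1 stayed above 0 under every alternative run. Of simulated 2-fold changes 19% were recovered in Lexogen.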

Other observations

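The libraries of animal 20, which entered no comparison of the times, held NCR1 at 62.0 CPM in Takara, above the 13 control libraries and within the range of the heat libraries, and at 78.3 CPM in Lexogen, within both ranges. Its GZMB level was 21.1 CPM in Takara and 4.53 CPM in Lexogen, and its CCL5 level was 126 and 23.3 CPM.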
